A study of Mus musculus with 16 samples.

Results

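The genes described here lie around Asic1 on mouse chromosome 15, and 145 of the 55401 genes in the files belong to the group. They were chosen by position: any gene overlapping chr15:89670368-109701130 (GRCm38), within 10 Mb of Asic1 at chr15:99670368-99701130, with a count above 1 CPM (counts relative to the library total, scaled to 1e6) in 1 or more of the 16 libraries, leaving out Asic1, Nr4a1 and symbols starting with Kcn, Scn, Cacn or Col. Of the 416 annotated genes in this window with a row in the files, 265 fell under the filter and 6 passed but were left out by name. Of the 145 members, 125 were over 1 CPM in all 16 libraries and 20 in only some of them. By position 79 lie at lower and 66 at higher coordinates, where the last annotated gene of the chromosome ends 4.20 Mb beyond Asic1. The RNA came from the whole hypothalamus of male C57BL/6-background mice, 3 months old, under alternating light and dark. The groups were ASIC1a-/- mice and wild-type (WT) mice at Zeitgeber time 1 (ZT1, hours after lights on) and ASIC1a-/- and WT mice at ZT13, with 4 libraries each. ASIC1a-/- mice carry a deletion of the acid-sensing ion channel 1a in every cell, and both genotypes came from heterozygous parents.

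A targeted deletion made in embryonic stem cells is passed on together with the DNA next to it, and after crosses to another strain the genes beside the target can still carry alleles of the stem cell strain. A difference between knockout and WT mice in such a gene can therefore come with the chromosome segment as well as with the missing protein. The strain of the stem cells is not given in the sources used here, and with a single knockout line the deletion and a linked segment cannot be told apart. The genes around Asic1 in mouse include a keratin cluster, the Hoxc cluster, the alpha tubulin genes that build neuronal microtubules, and many genes used by every cell.

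Over both times, 2 members differed between the genotypes at an adjusted p under 0.05, against 0.0633% of the 15808 genes tested: Krt90 was lower and Cers5 was higher in ASIC1a-/- hypothalamus. Racgap1 was lower at ZT13. The abundance-weighted transcript length of Faim2 was shorter and that of Krt1 longer in ASIC1a-/- libraries. Tests of expression are edgeR's quasi-likelihood test on all tested genes with Benjamini-Hochberg adjustment, and a gene is called at an adjusted p under 0.05.

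The stretches of 250 bases before the RefSeq start of the 3 genes called in any genotype comparison are printed 5' to 3' in the direction of the gene (RefSeq, GRCm38.p6, minus strand for all 3). They are shown because Racgap1 and Cers5 lie close to Asic1 on either side of it and moved in opposite directions, and Krt90 had the largest called difference. Capitals mark matches to 3 motifs, searched on both strands. The GC box was spelled GGGCGG. The CCAAT box was spelled as its name. The TATA box was spelled TATAAA. No match overlapped one of another motif.
Racgap1, chr15:99651657-99651906: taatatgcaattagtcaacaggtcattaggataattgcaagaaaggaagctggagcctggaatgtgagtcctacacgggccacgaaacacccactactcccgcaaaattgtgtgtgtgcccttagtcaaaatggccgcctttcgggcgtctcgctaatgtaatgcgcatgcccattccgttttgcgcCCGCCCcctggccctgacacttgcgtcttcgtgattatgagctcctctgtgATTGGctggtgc
Cers5, chr15:99772516-99772765: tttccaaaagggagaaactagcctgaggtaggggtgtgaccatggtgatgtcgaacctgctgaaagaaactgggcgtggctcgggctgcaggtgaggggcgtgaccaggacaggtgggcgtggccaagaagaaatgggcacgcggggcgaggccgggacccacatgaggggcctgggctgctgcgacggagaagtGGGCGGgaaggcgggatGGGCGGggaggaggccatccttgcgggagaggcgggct
Krt90, chr15:101562951-101563200: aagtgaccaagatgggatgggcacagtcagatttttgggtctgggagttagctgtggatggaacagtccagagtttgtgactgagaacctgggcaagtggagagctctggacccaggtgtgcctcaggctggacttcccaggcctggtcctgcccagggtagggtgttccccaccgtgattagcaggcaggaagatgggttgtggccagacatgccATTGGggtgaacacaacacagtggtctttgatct
The Racgap1 stretch held 1 GC box, 63 to 58 bases before the start, and 1 CCAAT box, 12 to 8 bases before it, both read from the opposite strand. The Cers5 stretch held 2 GC boxes in the direction of the gene, 55 to 50 and 38 to 33 bases before the start. This stretch lies inside the gene as GENCODE places it (chr15:99734881-99772885), because the RefSeq and GENCODE starts of Cers5 differ. The Krt90 stretch held 1 CCAAT box, 34 to 30 bases before the start, read from the opposite strand. None of the 3 held a TATA box. Of 32851 promoter stretches of the same length in the table, 32.7% held a GC box, 33.8% a CCAAT box and 12.4% a TATA box. Of the 144 stretches belonging to the 113 members that matched by symbol, 59.0% held a GC box, 31.9% a CCAAT box and 5.56% a TATA box. Dinucleotides of C followed by G numbered 13 in the Racgap1 stretch, 16 in that of Cers5 and 1 in that of Krt90, with a median of 6 over all stretches. The 32851 stretches were not filtered for expression, whereas the members had to exceed 1 CPM, so the sets differ in more than position. These matches describe the letters only.

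In each library the targeted gene was checked first. Asic1 had 64.9 to 70.0 CPM in ASIC1a-/- and 101 to 106 CPM in WT libraries at ZT1, and 69.9 to 71.9 CPM in ASIC1a-/- and 97.1 to 102.2 CPM in WT libraries at ZT13, without overlap. Its mean transcript length was 1766 to 1862 bp in ASIC1a-/- and 3026 to 3382 bp in WT at ZT1, and 1812 to 1829 bp in ASIC1a-/- and 2980 to 3173 bp in WT at ZT13. Per length its level was higher in ASIC1a-/-, with 72.8 to 82.8 TPM in ASIC1a-/- and 61.8 to 68.2 TPM in WT at ZT1, and 81.1 to 84.0 TPM in ASIC1a-/- and 60.8 to 71.1 TPM in WT at ZT13 (TPM is a share of transcripts scaled for length). These Asic1 values are for the gene as a whole, with all of its transcripts together, and are not a level of the deleted form. The paper reports that Asic1a mRNA was absent in ASIC1a-/- animals by RT-qPCR. Library totals were 34888522 to 42326259 expected counts. All 12 hypothalamic markers passed the filter, and their summed CPM was 1261 to 1612 in ASIC1a-/- and 1191 to 1620 in WT libraries. Markers of meninges (Dcn, Lum, Col1a1, Col1a2, Slc6a13, Ogn and Igf2, all 7 over the filter) summed to 347 CPM in ASIC1a-/- ZT1 replicate 4 and 173 CPM in ASIC1a-/- ZT13 replicate 2, with medians of 81.7 CPM in ASIC1a-/- and 51.5 CPM in WT at ZT1, and 45.4 CPM in ASIC1a-/- and 57.0 CPM in WT at ZT13. In whole tissue, fewer cells of a type and less RNA per cell cannot be told apart.

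Krt90 belongs to the type II keratins, a family of filament proteins best known from epithelia. GENCODE release 21 lists it as protein coding, whereas the paper names it a pseudogene. The paper's own RNA-seq comparison reports Krt90 as lower in ASIC1a-/- at ZT1 and at ZT13. At chr15:101552356-101562950 it lies 1.85 Mb from Asic1 at higher coordinates. At ZT1 it had 2.27, 1.82, 2.67 and 1.90 CPM in ASIC1a-/- libraries, against 5.11, 5.20, 4.58 and 4.56 CPM in WT libraries. At ZT13 it had 2.48, 3.11, 2.28 and 3.55 CPM in ASIC1a-/- libraries, against 5.92, 5.91, 5.13 and 6.62 CPM in WT libraries. Every ASIC1a-/- library was below every WT library. The means were 2.16 ± 0.390 CPM in ASIC1a-/- and 4.86 ± 0.339 CPM in WT at ZT1, and 2.86 ± 0.581 CPM in ASIC1a-/- and 5.89 ± 0.607 CPM in WT at ZT13 (SD, n = 4 each). Krt90 was the only member called at ZT1, where 0.0127% of all tested genes were called, all of them lower, and its log2 difference there was -1.17, with an SE of 0.14 (adjusted p = 0.0018 by edgeR). It was also called at ZT13, where 0.101% of tested genes were called (0.0822% higher and 0.019% lower) and where 1 member was higher and 2 were lower, at -1.05 (SE 0.14, adjusted p = 0.0010 by edgeR). Over both times its level in ASIC1a-/- was 0.464 of that in WT (log2 -1.11, SE 0.10, adjusted p = 1.1e-05 by edgeR). An exact permutation test gave p = 0.0286 at either time, two-sided, the smallest that 4 against 4 libraries allow. RSEM's posterior SD of its count was 0. The gene Gm44393 overlaps it on the other strand, as Gm17058 overlaps Cers5, and since it is not stated that counting used strand, reads of such partners cannot be told apart.

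**Figure D1:**
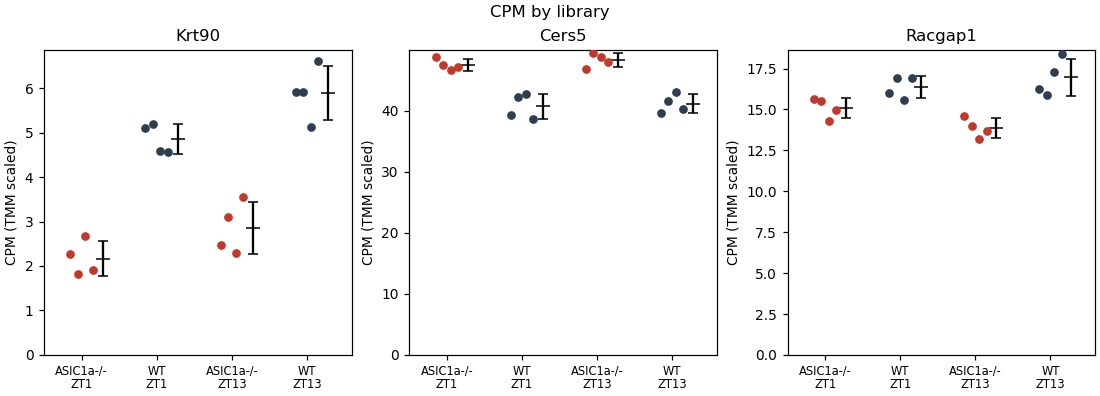
CPM of Krt90, Cers5 and Racgap1 (vertical axes, TMM scaled, starting at 0) in the 4 groups (horizontal axes), with a point for each library and the mean and SD beside them. Krt90 lies lower and Cers5 higher in every ASIC1a-/- library than in any WT library, and Racgap1 does not overlap at ZT13.

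Cers5 encodes ceramide synthase 5, an enzyme of the endoplasmic reticulum that attaches a fatty acid to a sphingoid base to make ceramide. It lies 0.034 Mb from Asic1, at chr15:99734881-99772885. At ZT1 it had 48.7, 47.5, 46.6 and 47.1 CPM in ASIC1a-/- libraries, against 39.2, 42.2, 42.7 and 38.6 CPM in WT libraries. At ZT13 it had 46.9, 49.4, 48.8 and 47.9 CPM in ASIC1a-/- libraries, against 39.7, 41.6, 43.0 and 40.2 CPM in WT libraries. The genotypes did not overlap in any of the 16 libraries, a pattern that Cers5 and Krt90 alone showed among the members and that held for 0.0316% of all tested genes. The means were 47.5 ± 0.920 CPM in ASIC1a-/- and 40.7 ± 2.07 CPM in WT at ZT1, and 48.3 ± 1.10 CPM in ASIC1a-/- and 41.1 ± 1.5 CPM in WT at ZT13 (SD, n = 4 each). Over both times, where 0.0506% of tested genes were higher, Cers5 was higher by 17% in ASIC1a-/- (log2 0.23, SE 0.03, adjusted p = 3.4e-04 by edgeR). The paper's own RNA-seq comparison lists Cers5 as higher in ASIC1a-/- at ZT1. The paper also measured Cers5 by RT-qPCR in the same hypothalamus RNA and reports that its higher level in ASIC1a-/- was not borne out there. Here Cers5 passed at ZT13 (log2 0.23, SE 0.04, adjusted p = 0.011 by edgeR) but not at ZT1 (log2 0.22, SE 0.04, adjusted p = 0.075 by edgeR). At ZT1 it was called by DESeq2 (adjusted p = 3.7e-04), with no low-count filter (0.025) and without WT ZT1 replicate 3 (0.047). The ZT13 call was lost without WT ZT13 replicate 1, or ASIC1a-/- ZT13 replicate 2 or 3, with adjusted p of 0.064, 0.051 and 0.061, while the difference stayed between 0.21 and 0.25 when any library was left out. Of the other 23 tested genes of ceramide synthesis and breakdown, none was called in a genotype comparison; their list, Cers5 included, had a median log2 difference of 0.01 over both times, beside 0.00 for all tested genes. Cers2 had 0.05, Cers4 -0.08 and Cers6 -0.03, and Sphk1, a sphingosine kinase at low level, had 1.14 (SE 0.40, adjusted p = 0.72).

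Racgap1 encodes a GTPase-activating protein, which together with the kinesin Kif23 forms the centralspindlin complex that is needed for cytokinesis. It lies 0.019 Mb from Asic1 on the other side, at chr15:99620496-99651656. At ZT1 it had 15.67, 15.49, 14.30 and 14.97 CPM in ASIC1a-/- libraries, against 16.03, 16.93, 15.58 and 16.91 CPM in WT libraries. At ZT13 it had 14.63, 13.99, 13.21 and 13.67 CPM in ASIC1a-/- libraries, against 16.26, 15.89, 17.29 and 18.38 CPM in WT libraries. The groups overlapped slightly at ZT1 and did not overlap at ZT13. On the log2 scale it differed by -0.29 at ZT13 (SE 0.05, adjusted p = 0.032 by edgeR), -0.11 at ZT1 (SE 0.05, adjusted p = 0.68) and -0.20 over both times (SE 0.04, adjusted p = 0.051). Over both times it was called by DESeq2 (adjusted p = 0.0080), with no low-count filter (0.045) and without WT ZT13 replicate 2 (0.037). The difference between the times was not called (interaction -0.18, SE 0.07, unadjusted p = 0.030, adjusted p = 1.00). The ZT13 call was lost when WT replicate 3 or 4 or ASIC1a-/- replicate 2, 3 or 4 of ZT13 was left out (adjusted p up to 0.17), and under library size scaling, TPM and a fit of the 8 libraries alone. The paper does not name Racgap1 among the genes lower in ASIC1a-/- at ZT13. Of the other 8 tested genes of cytokinesis none was called, and Kif23, the partner of Racgap1, had a log2 difference of -0.01 (SE 0.11) over both times at a mean of 1.44 CPM.

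Faim2, a neuronal inhibitor of death signalling through Fas, lies 0.14 Mb below Asic1 at chr15:99497012-99528165 and was among the members with the highest levels (mean 631 TPM). RSEM gives each gene a mean transcript length weighted by the abundance of its transcripts, and this length differed. It was 2478, 2486, 2485 and 2470 bp in ASIC1a-/- libraries at ZT1, against 2670, 2607, 2660 and 2629 bp in WT libraries. It was 2480, 2442, 2483 and 2415 bp in ASIC1a-/- libraries at ZT13, against 2607, 2575, 2587 and 2629 bp in WT libraries. No ASIC1a-/- library reached the shortest WT value. Over both times the length was 5.84% shorter (log2 fell by 0.09, SE 0.01, adjusted p = 1.8e-04 by limma over 15808 genes). It was called at ZT1 (adjusted p = 0.0053) and at ZT13 (adjusted p = 0.015) as well, and under every alternative tried, including each library left out in turn. At each time 0.0127% of tested genes were called for length, and over both times 0.019%, which are Asic1, Faim2 and Krt1, so that 2 of the 3 genes called are members. In the GENCODE release used for positions, Faim2 has 6 transcripts of 605, 881, 1318, 4168, 4661 and 11480 bp, the coding ones being those of 4168 and 4661 bp. A shorter mean means more weight on short transcripts or less on long ones. Which transcripts changed is not recorded in the gene tables.

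The count and the level of Faim2 gave different answers. Its count was 757 to 796 CPM in ASIC1a-/- and 817 to 836 CPM in WT at ZT1, and 726 to 778 CPM in ASIC1a-/- and 767 to 798 CPM in WT at ZT13. The groups were apart at ZT1 and overlapped at ZT13, with a log2 difference of -0.07 over both times (SE 0.02, unadjusted p = 4.4e-04, adjusted p = 0.32 by edgeR, and 0.0078 by DESeq2). Per length, its level was 633 ± 19.2 TPM in ASIC1a-/- and 638 ± 11.9 TPM in WT at ZT1, and 636 ± 14.4 TPM in ASIC1a-/- and 618 ± 14.1 TPM in WT at ZT13 (SD, n = 4 each). On the log2(TPM + 1) scale the difference was 0.01 (SE 0.02, adjusted p = 0.92 by limma), so the lower count was not seen once the length was divided out.

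**Figure D2:**
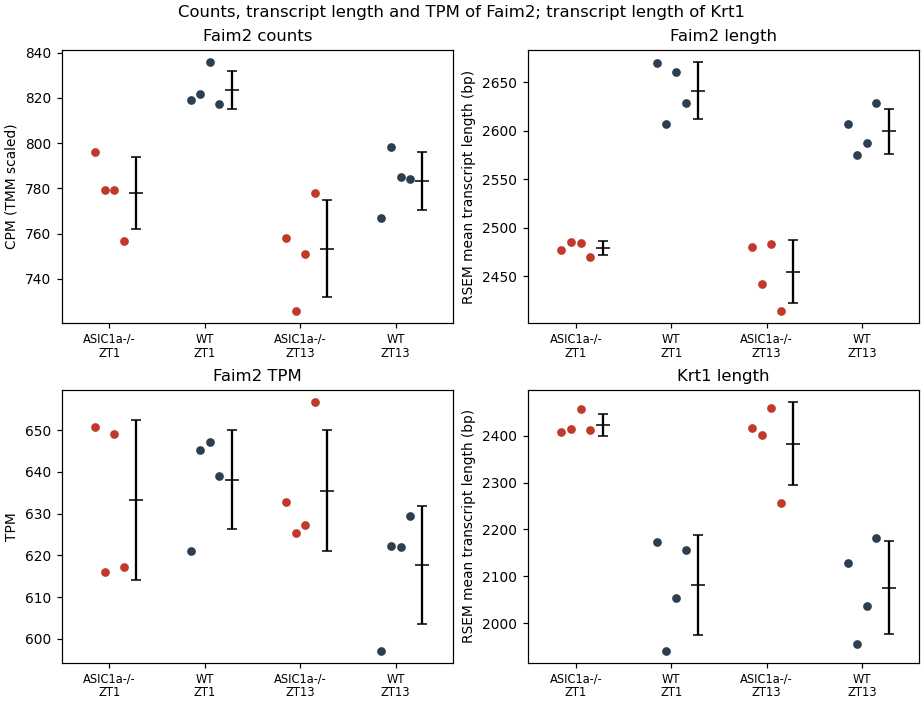
Faim2 CPM, Faim2 mean transcript length in bp, Faim2 TPM and Krt1 mean transcript length in bp (vertical axes, not starting at 0) in the 4 groups, with a point for each library and the mean and SD beside them. The lengths of both genes separate the genotypes at both times, while the TPM of Faim2 overlaps.

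Krt1, a type II keratin of differentiating epidermis, lies 2.14 Mb above Asic1. Its mean transcript length was 2408, 2414, 2457 and 2412 bp in ASIC1a-/- libraries at ZT1, against 2173, 1941, 2053 and 2155 bp in WT libraries. At ZT13 it was 2417, 2402, 2459 and 2256 bp in ASIC1a-/- libraries, against 2128, 1956, 2037 and 2182 bp in WT libraries. The genotypes did not overlap at either time. Over both times the length was 15.7% longer (log2 0.21, SE 0.03, adjusted p = 0.038 by limma), and at the single times the adjusted p was 0.68 at ZT1 and 0.45 at ZT13. The direction held in each of 20 alternatives, but the call was lost in 12 of them, in 11 of which a library had been left out (adjusted p up to 0.15). Krt1 has 3 annotated transcripts of 429, 2455 and 3133 bp, of which the one of 2455 bp is coding. With a mean of 8.67 CPM its length rests on few reads, and its count was not called (log2 -0.16 over both times, SE 0.06, adjusted p = 0.72 by edgeR). Per length, Krt1 had 6.95 ± 0.734 TPM in ASIC1a-/- and 8.98 ± 0.279 TPM in WT at ZT1, and 7.02 ± 0.879 TPM in ASIC1a-/- and 9.37 ± 0.898 TPM in WT at ZT13 (SD, n = 4 each). No ASIC1a-/- library reached the lowest WT value, and on the log2 TPM scales the difference was as large as -0.39, with an adjusted p by limma no lower than 0.055, so it did not pass there either. Cers5, by contrast, had lengths of 2092 to 2130 bp in ASIC1a-/- and 2151 to 2221 bp in WT at ZT1, which overlapped at ZT13, and was not called for length (adjusted p = 1.00).

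The 6 members on the lower side nearest to Asic1 are Racgap1, Faim2, Bcdin3d, Nckap5l, Tmbim6 and Fmnl3. Bcdin3d, an RNA methyltransferase, had a log2 difference of -0.14 over both times (SE 0.08), Nckap5l, a microtubule-associated protein of the centrosome, -0.10 (SE 0.06), Tmbim6, a relative of Faim2 in the endoplasmic reticulum, -0.03 (SE 0.02) and Fmnl3, a formin that assembles actin, 0.00 (SE 0.04). None of these 4 was called. The nearest 6 on the higher side are Smarcd1, Gpd1, Cox14, Cers5, Lima1 and Larp4. Smarcd1, a subunit of the SWI/SNF chromatin remodelling complex that starts 0.0010 Mb from the end of Asic1, had 83.2 to 91.0 CPM in ASIC1a-/- and 89.0 to 95.6 CPM in WT at ZT1, and 83.6 to 88.6 CPM in ASIC1a-/- and 87.8 to 92.3 CPM in WT at ZT13. Its libraries overlapped at both times, and the log2 difference was -0.05 (SE 0.02, adjusted p = 0.72). Gpd1, the cytosolic glycerol-3-phosphate dehydrogenase, had 0.11 (SE 0.06), Cox14, an assembly factor of cytochrome c oxidase, 0.05 (SE 0.04), Lima1, an actin-binding protein, 0.06 (SE 0.07) and Larp4, an RNA-binding protein of the La family, -0.04 (SE 0.03). Cers5 was called, and the 5 others on this side were not.

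Most differences across the window were small, and they were described by distance without a test. Within 0.5 Mb of Asic1, 4 of 17 members had an unadjusted p under 0.05 over both times (Racgap1, Faim2, Smarcd1 and Cers5), where 6.8% of all tested genes did. The median absolute log2 difference there was 0.06, against 0.03 over all tested genes, and it stayed between 0.05 and 0.07 when any library was left out. From 0.5 to 1 Mb the count was 1 of 31 members, from 1 to 2 Mb 3 of 27 and from 2 to 5 Mb 8 of 50, with median absolute differences of 0.05, 0.03 and 0.03. From 5 to 10 Mb it was 0 of 20 members, with a median absolute difference of 0.02 and no member called at ZT1, at ZT13 or over both times. All 20 lie at lower coordinates, while 37 of the 50 from 2 to 5 Mb lie at higher coordinates. Distance and side therefore change together across these groups. At ZT1 the shares under 0.05 were 3 of 17, 3 of 31, 4 of 27, 7 of 50 and 0 of 20 with increasing distance, beside 7.0% of all tested genes. The median absolute differences at ZT1 were 0.056, 0.072, 0.067, 0.051 and 0.020, beside 0.045, so the nearest members did not have the highest. At ZT13 the shares were 3 of 17, 2 of 31, 1 of 27, 2 of 50 and 0 of 20, beside 3.74%, and the median absolute differences 0.069, 0.052, 0.025, 0.038 and 0.033, beside 0.037. Among the 463 tested genes of chromosome 15 outside the window no gene was called at either time or over both. Of these, 25 at ZT1, 20 at ZT13 and 29 over both times had an unadjusted p under 0.05. The 6 genes of the window left out by name, Asic1 and Nr4a1 among them, are in neither set. All members together had 17 at ZT1, 8 at ZT13 and 16 over both times, 11.0% in the last case. Krt80 is among those at ZT1 and over both times, also from 1 to 2 Mb, and Itgb7 is among those at ZT1. Both are genes at low level that are described further below without a test. Without Krt80 there were 16 members at ZT1, which still include Itgb7. Other members over 1 CPM in only some libraries were not taken out either. Of the 108 members with a mean of at least 5 CPM, 11 had an unadjusted p under 0.05 at ZT1, 6 at ZT13 and 9 over both times. The median log2 difference of all members was 0.00 at each time and over both, with 69 members above and 76 below 0 over both times. At the ends of the window, Syt10, a synaptotagmin 9.83 Mb below Asic1, had -0.03 (SE 0.07), and Ppp1r1a, an inhibitor of protein phosphatase 1 that lies 3.83 Mb above it, had 0.01 (SE 0.05).

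**Figure D3:**
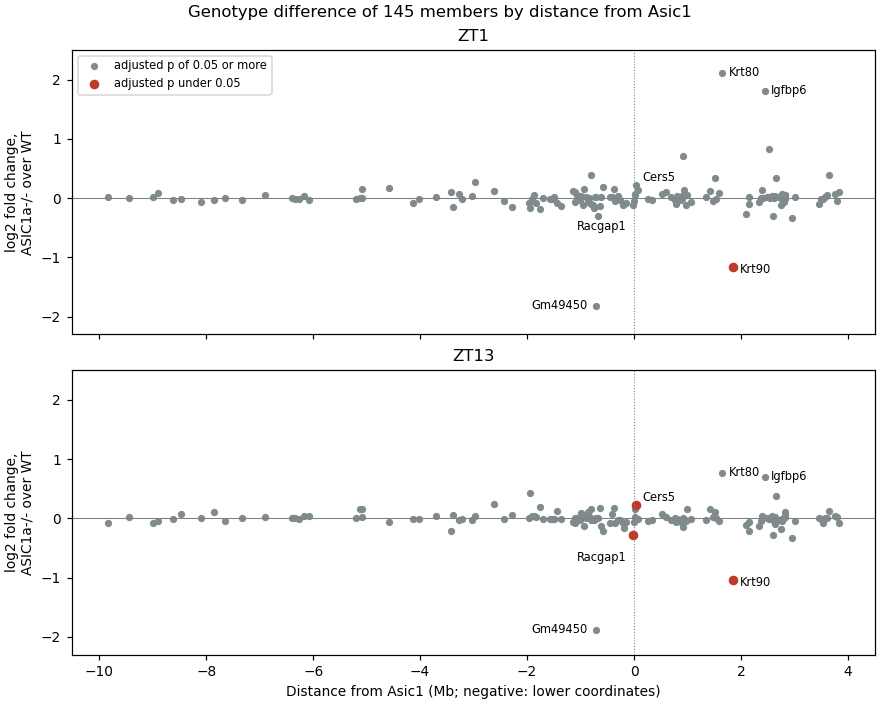
Log2 fold change of the 145 members, ASIC1a-/- over WT (vertical axes), against the distance from Asic1 in Mb (horizontal axis, negative at lower coordinates), at ZT1 above and ZT13 below, with called members in red. Most points lie near 0 at every distance, with Krt90 called at both times and Cers5 and Racgap1 called at ZT13.

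The libraries of ZT1 and ZT13 come from different mice, so a difference seen at both times was seen in separate samples. Of the 145 members 81 had the same sign at both times, beside 54.7% of all tested genes. Among the 17 members with an unadjusted p under 0.05 at ZT1, 11 kept the sign at ZT13, and all 8 members under 0.05 at ZT13 had the sign of ZT1. Among all genes the corresponding counts were 709 of 1107 and 333 of 591. Without Krt80, 10 of 16 members under 0.05 at ZT1 kept the sign, with Itgb7 still among the 16. Of the 108 members with a mean of at least 5 CPM, 11 were under 0.05 at ZT1 and 7 of these kept the sign. All 6 of them under 0.05 at ZT13 had the sign of ZT1. Unadjusted p under 0.05 with the same sign at both times was found for 5 members (Krt90, Cers5, Racgap1, Faim2 and Gm49450), beside 0.253% of all tested genes. Of the 40 such genes in the genome 8 are on chromosome 15, namely these 5, Asic1 itself, and Pla2g6 and Kcns2, which lie outside the window. Across the members Pearson's r between the differences at ZT1 and ZT13 was 0.76 and Spearman's rank correlation 0.24, beside 0.03 and 0.13 across all tested genes, and without Krt80 r was 0.75. Among the 108 members with a mean of at least 5 CPM r was 0.28. The points of such a correlation are genes measured in the same libraries and are not independent. Libraries of the genotypes did not overlap for 11 members at ZT1, beside 2.92% of all tested genes, and for 4 at ZT13, beside 2.58%, and Krt90 and Cers5 alone were among them at both times in the same direction, beside 0.0949% of all tested genes. Without Krt80 the number at ZT1 was 10, and among the 108 members with a mean of at least 5 CPM it was 6 at ZT1 and 3 at ZT13. No member was called for the interaction of genotype and time, where 0.019% of tested genes were called, and 6 members had an unadjusted p under 0.05, beside 3.91% of all tested genes. DESeq2, limma-voom and the other alternatives called none either.

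**Figure D4:**
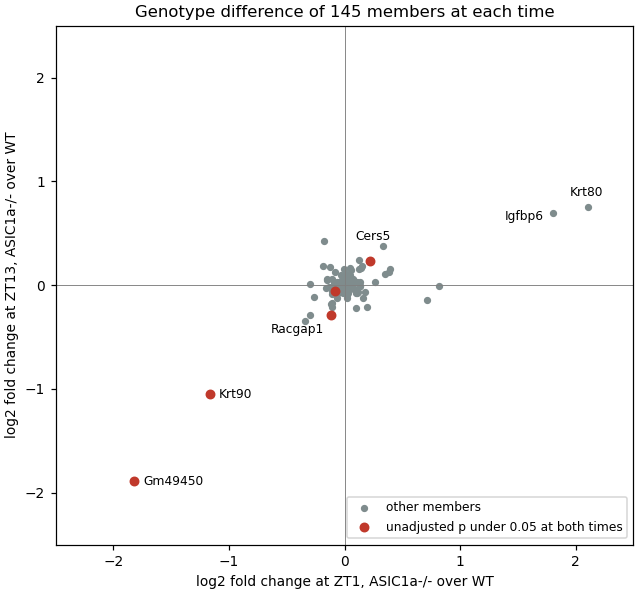
Log2 fold change of each of the 145 members at ZT13 (vertical axis) against that at ZT1 (horizontal axis), ASIC1a-/- over WT, with the 5 members that had an unadjusted p under 0.05 at both times in red. Krt90 and Gm49450 lie far from the cloud on the lower left, and Krt80 and Igfbp6 on the upper right.

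Several members with large differences did not pass. Gm49450, a transcript that overlaps Tuba1a and Tuba1b, had 1.26, 3.19, 1.22 and 0.140 CPM in ASIC1a-/- libraries at ZT1, against 5.25, 2.42, 5.60 and 7.30 CPM in WT libraries. At ZT13 it had 0.300, 0.650, 1.74 and 0.111 CPM in ASIC1a-/- libraries, against 1.09, 1.22, 3.77 and 4.67 CPM in WT libraries. The genotypes overlapped at both times, the log2 difference was -1.85 (SE 0.47, adjusted p = 0.53, and 0.015 with no low-count filter), and RSEM's posterior SD was 43.6% of its count, so its reads are shared with other genes and its value is uncertain. Atp5g2, subunit c of the mitochondrial ATP synthase, had -0.34 (SE 0.14, adjusted p = 0.72) with a posterior SD of 40.1%. Krt80, another type II keratin, had 0.336, 0.364, 0.779 and 2.46 CPM in ASIC1a-/- libraries at ZT1, against 0.223, 0.197, 0.309 and 0.171 CPM in WT libraries. Igfbp6, which encodes an insulin-like growth factor binding protein, had 1.04, 0.644, 2.14 and 6.76 CPM in ASIC1a-/- libraries at ZT1, against 0.921, 0.675, 0.844 and 0.570 CPM in WT libraries. The highest values of both genes at ZT1 were in ASIC1a-/- replicate 4, the library with the highest sum of meningeal markers, and at ZT13 in ASIC1a-/- replicate 2, where Krt80 had 0.678 CPM and Igfbp6 4.15 CPM. Krt80 exceeded 1 CPM only in ASIC1a-/- ZT1 replicate 4 and so entered the members through the group where it is high, which makes its difference over both times, 1.43, a description without a test. That of Igfbp6 was 1.25 (SE 0.49, adjusted p = 0.72). Without these 2 libraries, which were picked for this alternative with the values in view, Krt80 had 0.58 and Igfbp6 0.10 (SE 0.26). Krt90 kept a difference of -1.10 (SE 0.11, adjusted p = 5.8e-05) and Cers5 of 0.22 (SE 0.03, adjusted p = 0.0027) over both times without them, while the ZT13 calls of Cers5 and Racgap1 were lost (adjusted p = 0.066 and 0.093 by edgeR). The part of meningeal tissue in the remaining differences was not tested.

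Nell2, a secreted glycoprotein of neurons, had a log2 difference of -0.05 (SE 0.02) over both times and Hnrnpa1, a splicing regulator, -0.04 (SE 0.02), neither of them called (adjusted p = 0.72 for each by edgeR). Itgb7, an integrin of leukocytes, exceeded 1 CPM in only 3 libraries, at up to 1.17 CPM. Its highest level was 2.04 TPM in ASIC1a-/- ZT1 replicate 3, against at most 1.27 TPM in WT. Its difference over both times, 0.41, is therefore given as a description without a test. Of the 27 keratin genes in the window, 6 passed the filter, and 1 was called. Krt90 fell, while Krt73 had -0.19, Krt18 -0.09, Krt77 -0.02, Krt1 -0.16 and Krt80 1.43 over both times, with a median of -0.13 that includes Krt80. Krt73 exceeded 1 CPM in 1 library only, at 1.11 CPM, and its highest level was 1.07 TPM in WT ZT1 replicate 4. Its difference is likewise a description without a test. None of the 10 genes listed for the Hoxc cluster (Hotair included), the 3 aquaporin genes or the ligands Wnt1, Wnt10b and Dhh passed the filter. The alpha tubulins Tuba1a (1356 TPM) and Tuba1b (1253 TPM) had the highest levels per length of all members and differences of 0.01 each (SE 0.02), and Tuba1c had 0.02 (SE 0.19) at 2.22 TPM. The 3 are near-identical copies, and the posterior SD was 16.9% of the count for Tuba1c. Among the amino acid transporters, Slc38a1 had 0.00 (SE 0.02), Slc38a2 0.15 (SE 0.07) and Slc38a4 0.19 (SE 0.13). Slc38a2, which imports neutral amino acids, had 121, 135, 136 and 184 CPM in ASIC1a-/- libraries at ZT1, against 124, 119, 121 and 115 CPM in WT libraries, with the highest value in the library highest in meningeal markers. Without the 2 libraries its difference over both times was 0.04 (SE 0.03), that of Slc38a4 0.06 (SE 0.13), that of Sp7 0.18 (SE 0.14) and that of Acvrl1 0.08 (SE 0.06). The TGF-beta family receptors Acvrl1 and Acvr1b had 0.14 (SE 0.06) and -0.01 (SE 0.02), and Amhr2 had -0.15. Amhr2 exceeded 1 CPM in 1 library only, at 1.05 CPM, and its highest level was 1.57 TPM in ASIC1a-/- ZT13 replicate 2. Its difference is likewise a description without a test. None of the 7 chromatin regulators, which ranged between -0.07 and 0.04, and none of the 11 tested transcription factors was called. Kmt2d, a histone methyltransferase, had -0.07, Mcrs1 0.04 and Arid2, another SWI/SNF subunit, 0.03. The transcription factor Sp7, known from bone, had 0.36 (SE 0.15, adjusted p = 0.72), Csrnp2 -0.08, Pou6f1 -0.05 and Atf1 0.07. The median of the 11 factors was 0.01, beside 0.00 for all tested genes.

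The time of day was compared within each genotype. In ASIC1a-/- mice 14 members differed between ZT13 and ZT1, 8 higher and 6 lower, beside 11.3% of all tested genes (6.72% higher and 4.62% lower). In WT mice 21 differed, 11 higher and 10 lower, beside 13.3% (7.52% higher and 5.76% lower). On the log2 TPM scales the counts were 5 in ASIC1a-/- and 8 in WT, and in ASIC1a-/- 9 with the 8 libraries of the comparison alone and 8 without the 2 libraries highest in meningeal markers. With each library left out in turn they were 9 to 15 in ASIC1a-/- and 14 to 21 in WT. There were 8 members called in both genotypes in the same direction and none in opposite directions, beside 6.91% of all tested genes called in both in the same direction. The sign was the same in both genotypes for 26 of the 27 members called in either, the exception being Tmem117, and for 105 of all 145 members. Over all tested genes it was the same for 96.8% of those called in either genotype and for 74.2% of all. The 2 comparisons share no libraries. Mettl7a1, a methyltransferase-like protein of lipid droplets, had 29.4, 33.5, 31.1 and 30.7 CPM at ZT1 and 38.7, 37.6, 35.1 and 34.3 CPM at ZT13 in ASIC1a-/- libraries. It had 27.50, 30.002, 28.40 and 29.65 CPM at ZT1 and 36.0, 34.5, 35.2 and 37.4 CPM at ZT13 in WT libraries. The times did not overlap in either genotype, with a log2 change of 0.23 in ASIC1a-/- (adjusted p = 0.0045) and 0.31 in WT (adjusted p = 3.8e-04). Of the 3 Mettl7a copies it alone passed the filter.

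Slc38a2 had the largest rise in WT, 0.50 (adjusted p = 0.0024), and 0.27 in ASIC1a-/- (adjusted p = 0.080). Among the other members higher at ZT13, Larp4 changed by 0.16 in ASIC1a-/- and 0.18 in WT (adjusted p = 0.010 and 0.0033), Gpd1 by 0.29 and 0.18 (adjusted p = 0.038 and 0.20), Ccnt1, the cyclin of the elongation factor P-TEFb, by 0.18 and 0.10 (adjusted p = 0.0024 and 0.060), and Adcy6, an adenylyl cyclase, by 0.16 and 0.22 (adjusted p = 0.084 and 0.019). Tmem117 changed by -0.04 in ASIC1a-/- and 0.21 in WT (adjusted p = 0.72 and 0.028), and its interaction was not called (unadjusted p = 0.0092, adjusted p = 1.00). Lower at ZT13 were Prr13, by -0.25 in ASIC1a-/- and -0.17 in WT (adjusted p = 0.0028 and 0.026), Csad, an enzyme of taurine synthesis, by -0.20 and -0.20 (adjusted p = 0.028 and 0.029), and Tmem106c by -0.16 and -0.15 (adjusted p = 0.0051 and 0.0086). Bin2, a gene of leukocytes and microglia, changed by -0.44 and -0.30 (adjusted p = 0.028 and 0.13), Ccdc65, a component of motile cilia, by -0.11 and -0.28 (adjusted p = 0.31 and 0.010), and 4930578M01Rik by -0.24 and -0.55 (adjusted p = 0.30 and 0.016). All of these adjusted p values are from edgeR. Several of the calls ended when a single library was left out. In ASIC1a-/- that held for Gpd1 without ZT1 replicate 1 or 3 or ZT13 replicate 1, 2 or 4 (adjusted p up to 0.11), for Bin2 without ZT1 replicate 1 or 3 or ZT13 replicate 2 or 3 (up to 0.085), and for Csad without ZT1 replicate 1, 3 or 4 or ZT13 replicate 1 or 4 (up to 0.083). In WT it held for Csad without ZT1 replicate 1, 2 or 3 or ZT13 replicate 1 or 3 (up to 0.088), for Tmem117 without ZT1 replicate 2, 3 or 4 or ZT13 replicate 1, 3 or 4 (up to 0.086), for Prr13 without ZT1 replicate 1 or 4 or ZT13 replicate 4 (up to 0.084), and for Adcy6 without ZT1 replicate 1 or ZT13 replicate 4 (up to 0.074). Krt90, Cers5 and Racgap1 were not called between the times in either genotype.

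**Figure D5:**
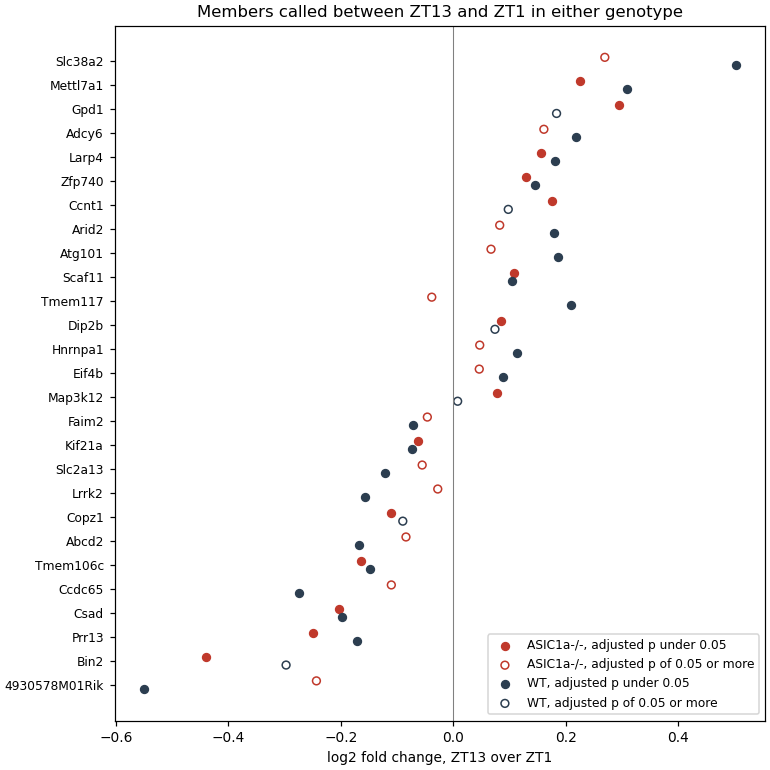
Log2 fold change at ZT13 over ZT1 (horizontal axis) of the 27 members called in either genotype (rows), with ASIC1a-/- in red above WT in dark blue and filled points at an adjusted p under 0.05. The points of both genotypes lie on the same side of 0 for 26 of the 27 members.

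The members nearest to the threshold of 1 CPM were 4833422M21Rik, with a highest value of 1.01 CPM, and Amhr2, with 1.05 CPM. Just outside it were Gm30085 with 0.981 CPM and Krt4 with 0.974 CPM. 4833422M21Rik exceeded 1 CPM in 1 library only, WT ZT1 replicate 3, so its log2 difference over both times, -0.06, is a description without a test. In simulated counts for ASIC1a-/- against WT at ZT13 over 15808 genes, with 50 altered genes at each of 4 sizes and 12 false calls, a log2 change of 0.25 was detected in 50% of the altered genes, one of 0.5 in 86%, one of 1 in 92% and one of 2 in 100%, so differences of the size of Cers5 and Racgap1 can be missed at this number of mice. The real comparison had 16 calls over the same genes, fewer than the altered genes of the simulation.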

How the data were processed

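RNA-seq of whole hypothalamus from 16 mice was used. The deposited expected counts and TPM were made by the authors with RSEM 1.2.31 after trimming with cutadapt 1.8 and alignment with STAR 2.5.3a; the submitters' processing notes name the builds GRCm38 and mm9. RSEM divides shared reads between genes, and 4.85% of the expected counts were not whole. The tables' mean transcript lengths and posterior counts were also used as deposited. Whether counting used strand is not given in the sources used here. Symbols and positions came from GENCODE mouse release 21 (GRCm38), which the study did not use.

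Expected counts were rounded and tested in edgeR 4.0.16 under R 4.3.3 with TMM scaling and the quasi-likelihood F test on 4 groups. The test covered 15808 genes that exceeded 1 CPM in some library, with Benjamini-Hochberg adjustment over all of them. Log2 transcript lengths were tested with limma 3.58.1. The biological coefficient of variation was 6.06%. Within groups, chi-square over degrees of freedom was 3.18 to 11.3 for pairs of libraries, so none was a repeat of another. The labels name no separate batch. Precision is set by 4 mice per group.

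Named genes were members called for genotype or length, the 12 with the smallest p over both times and 5 at each time, the 6 nearest on each side, the 4 largest called changes between times in each direction, those at the threshold and the ends of the window, and up to 4 per list. Members and lists were chosen with earlier results of these data known. Alternatives were DESeq2 1.42.0 and its size factors, library size only, no filter, filterByExpr, limma-voom, log2 TPM with pseudocounts of 1 and 0.1, unrounded counts, the 8 libraries compared, a replicate block and each library left out; the omission of the 2 libraries highest in meningeal markers was added after seeing the data. Scripts were tested on simulated data. Figures used matplotlib 3.10.9 in Python 3.11.15.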

Additional observations from a re-analysis of the deposited data

Results flagged for a closer look

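In groups of 4 libraries, a single library stood far from the other 3 in 11 of 212 groups of values of the named genes, and chance flags about 1 in 20 groups. ASIC1a-/- ZT13 replicate 2, one of the 2 libraries highest in meningeal markers, was the high library for Igfbp6 (4.15 CPM, others 0.582 to 0.659), Slc38a2 (205 CPM, others 159 to 166) and Sp7 (1.78 CPM, others 1.01 to 1.12). WT ZT1 replicate 4 was low for Csad (22.4 CPM, others 24.2 to 24.3) and Ccnt1 (44.5 CPM, others 47.3 to 47.8), and WT ZT1 replicate 2 was low for Nell2 (236 CPM, others 251 to 253). ASIC1a-/- ZT13 replicate 4 was low for Csad (19.4 CPM, others 21.2 to 21.4), and ASIC1a-/- ZT13 replicate 3 was high for 4930578M01Rik (2.4 CPM, others 1.75 to 1.84). WT ZT1 replicate 3 was high for 4833422M21Rik (1.01 CPM, others 0.619 to 0.642), WT ZT13 replicate 4 for Arid2 (72.0 CPM, others 66.4 to 67.1), and ASIC1a-/- ZT1 replicate 3 for the transcript length of Krt1 (2457 bp, others 2408 to 2414).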

How the results depend on the processing

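Krt90 stayed called at ZT1, ZT13 and over both times, Cers5 over both times and the length of Faim2 under every alternative run. Among members called for genotype, DESeq2 and no low-count filter each gave 2 at ZT1 and 4 over both times, and omission of the 2 libraries highest in meningeal markers gave 1 at ZT13; leaving out each library in turn gave 1 to 2 at ZT1, 1 to 3 at ZT13 and 1 to 2 for length. Between the times, log2 TPM with either pseudocount gave 5 members in ASIC1a-/- and 8 in WT, the 8 libraries alone gave 9 in ASIC1a-/-, omission of the meningeal libraries 8, and each library left out 9 to 15. Replicate numbers were not used to pair the mice in the main fit. Correlations of same-numbered libraries ran between -0.37 and 0.32, with no differently numbered libraries beside them, so they cannot settle whether the numbers pair the mice. The replicate block left 1 member called for length and ended the ZT13 call of Racgap1 (adjusted p = 0.068 by edgeR) and that of Csad between times in WT. Faim2 reversed on TPM, to 0.0149 (pseudocount 0.1) and 0.0148 (pseudocount 1) over both times and 0.0409 (both pseudocounts) at ZT13. Differences near 0 changed sign with log2(TPM + 0.1) for Fmnl3 (3.0e-04), with both pseudocounts for Ppp1r1a (-0.0089 and -0.0087) and Atf1 (-0.086 and -0.082), with limma-voom for Tuba1c (-1.7e-05), and without the meningeal libraries for Lima1 (-0.034), Ppp1r1a (-0.059), Tuba1c (-0.095) and Slc38a1 (0.0023). With a library left out, they ran between -0.026 and 0.024 for Fmnl3, -0.16 and 0.058 for 4833422M21Rik, -0.066 and 0.0047 for Syt10, -0.028 and 0.037 for Ppp1r1a, -0.0038 and 0.022 for Tuba1a, -0.0017 and 0.019 for Tuba1b, -0.048 and 0.16 for Tuba1c and -0.012 and 0.0051 for Slc38a1. The causes were not tested.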
